A study of Rattus norvegicus with 6 samples.

Results

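The glutathione transferases and NRF2 targets described here are 10 rat genes: the transferases Gsta1, Gsta4, Gstm1 and Gstp1, the glutathione synthesis genes Gclc and Gclm, and Nqo1, Hmox1, Txnrd1 and Srxn1. They were chosen by name, as every probe set that the annotation of the Rat Genome 230 2.0 array maps to a single one of these genes, and they are 10 of the 14217 single genes that the array names. They had 14 of 31042 probe sets other than controls. All 10 genes had a probe set above the signal filter (12 probe sets above, 2 below), where the filter keeps probe sets whose mean MAS5 signal over the 6 arrays was at least 61.6. Gsta1 was above it through the Vector arrays alone.

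The cells were 3Y1, a line of rat embryonic fibroblasts, in 3 groups of 2 arrays that the labels call biological replicates. Vector cells carried an empty vector and were grown in culture. MUC1-CD cells made the cytoplasmic domain of MUC1, a mucin of the cell membrane, and were profiled from culture (MUC1-CD in vitro) and from tumors under the skin of the hindlimb of female athymic mice (MUC1-CD in vivo). Both constructs were stably transfected, and the medium of all cultures held 10% heat-inactivated fetal bovine serum. The labels and files used here do not state whether each line was a clone or a pool, the age of the mice, how many cells gave rise to the profiled tumors or how long those grew. Athymic mice lack mature T cells but keep other blood cells, stroma and vessels, so tumors also hold mouse cells, and mouse RNA can bind to rat probes.

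Glutathione transferases join glutathione to reactive electrophiles, such as products of lipid peroxidation, which makes them easier to export. NRF2, the product of Nfe2l2, is a transcription factor that KEAP1 and the CUL3 ubiquitin ligase hold at a low level. When oxidants or electrophiles modify KEAP1, NRF2 accumulates, pairs with a small MAF protein and binds antioxidant response elements, and genes for glutathione synthesis, quinone reduction, heme breakdown and thiol repair are classic targets. BACH1 is a repressor that competes for the same elements, at Hmox1 above all.

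The promoters of 6 members are shown because they pair the genes with the largest changes (Gsta1, Gsta4 and Gstm1) with genes that were not called between the cultures (Gstp1, Gclm and Srxn1). Each is the RefSeq window of the GRCr8 assembly from 250 bases before to 50 bases after the gene's start, written 5′ to 3′ on the gene's strand. Capitals mark matches, searched on both strands. They are to the core of the antioxidant response element (TGACNNNGC), to a relaxed form of it (TGANNNNGC) or to an AP-1 site (TGANTCA). Every core match is also a match to the relaxed form, and an AP-1 site can overlap either.
Gsta1 (chr9:31216483-31216782, minus strand): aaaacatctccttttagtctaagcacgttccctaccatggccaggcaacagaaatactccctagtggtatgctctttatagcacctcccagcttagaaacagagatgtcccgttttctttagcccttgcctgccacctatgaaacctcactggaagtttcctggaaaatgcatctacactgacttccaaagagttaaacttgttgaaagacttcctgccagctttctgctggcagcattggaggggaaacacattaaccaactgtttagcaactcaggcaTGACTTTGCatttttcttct
Gsta4 (chr8:87947015-87947314, plus strand): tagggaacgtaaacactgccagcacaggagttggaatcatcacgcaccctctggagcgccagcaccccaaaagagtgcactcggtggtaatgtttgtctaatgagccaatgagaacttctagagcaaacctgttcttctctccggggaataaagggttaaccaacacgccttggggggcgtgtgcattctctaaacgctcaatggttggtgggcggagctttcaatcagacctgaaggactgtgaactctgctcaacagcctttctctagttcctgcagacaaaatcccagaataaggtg
Gstm1 (chr2:198343334-198343633, minus strand): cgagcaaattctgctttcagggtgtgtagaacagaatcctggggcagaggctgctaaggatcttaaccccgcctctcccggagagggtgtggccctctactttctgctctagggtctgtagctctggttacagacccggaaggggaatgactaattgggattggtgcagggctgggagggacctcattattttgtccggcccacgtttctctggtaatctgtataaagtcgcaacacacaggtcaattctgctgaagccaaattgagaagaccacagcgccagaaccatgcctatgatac
Gstp1 (chr1:210769656-210769955, minus strand): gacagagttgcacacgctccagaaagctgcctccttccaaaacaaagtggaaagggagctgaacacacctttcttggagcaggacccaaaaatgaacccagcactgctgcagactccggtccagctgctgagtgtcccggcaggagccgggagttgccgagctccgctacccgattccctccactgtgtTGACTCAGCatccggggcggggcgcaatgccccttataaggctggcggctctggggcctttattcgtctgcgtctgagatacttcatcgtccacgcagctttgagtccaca
Gclm (chr2:213031885-213032184, plus strand): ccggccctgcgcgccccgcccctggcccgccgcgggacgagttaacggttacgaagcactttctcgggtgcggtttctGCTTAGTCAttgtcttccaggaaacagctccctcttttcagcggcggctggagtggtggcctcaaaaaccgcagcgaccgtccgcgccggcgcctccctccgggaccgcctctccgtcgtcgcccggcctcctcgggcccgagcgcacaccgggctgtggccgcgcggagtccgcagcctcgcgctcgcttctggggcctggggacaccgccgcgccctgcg
Srxn1 (chr3:161064562-161064861, plus strand): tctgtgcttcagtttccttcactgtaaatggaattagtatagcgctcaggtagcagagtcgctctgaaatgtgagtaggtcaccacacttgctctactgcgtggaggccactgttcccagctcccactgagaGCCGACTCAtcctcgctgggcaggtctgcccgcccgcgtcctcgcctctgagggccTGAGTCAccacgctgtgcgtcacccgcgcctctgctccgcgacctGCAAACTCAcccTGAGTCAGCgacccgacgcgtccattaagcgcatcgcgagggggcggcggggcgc

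Windows were found for 9 of the 10 members (Hmox1 was not among them), and Txnrd1 had 2. The core element was matched in 4 of these 9 genes: Gsta1, Gstp1, Gclm and Txnrd1. Over all 27457 genes with a window, 13.1% had a match to the core, 42.5% to the relaxed form and 8.04% to the AP-1 site. In Gstp1 the core match TGACTCAGC began 61 bases before the start and contained an AP-1 match. In Gclm the match lay on the other strand, as GCTTAGTCA, 172 bases before the start. In Gsta1 it was TGACTTTGC, 31 bases into the transcribed part. Srxn1 had no core match, 3 relaxed matches and 2 AP-1 matches, of which TGAGTCAGC, 5 bases before the start, was both. Gsta4, Gstm1 and Gclc had no match in these 300 bases, and Nqo1 had only the relaxed form. Gclc, like Gstp1, Gclm and Srxn1, was not called between the cultures. A match describes the letters of the window and nothing about binding.

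Facts that touch all arrays are these. The Gapdh control had a 3' to 5' signal ratio of 11.5 and 17.8 on the Vector arrays and of 1.11 to 1.18 on the other 4, so RNA state and construct cannot be told apart. Between the replicates of a group, r over probe sets was 0.956 in Vector and 0.991 and 0.987 in the MUC1-CD groups, where probe sets are no independent samples. All 10 fibroblast markers had a probe set above the filter, among them Vim at 20239 to 27322 on every array, while Fbn1 was at 9.25 ± 1.77 (SD, n = 2) in Vector cells. The rat Muc1 probe set was below the filter, at 87.9 ± 6.65 in Vector cells, 35.1 ± 11.9 in MUC1-CD culture and 56.5 ± 6.79 in tumors, and does not check the labels, because no source used here says if it would bind the construct's transcript. Differences that arose between the lines by chance and those due to the construct cannot be told apart.

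The first comparison, between the cultures, asks which of these genes differ with expression of the MUC1 domain. The alpha class transferases Gsta1 and Gsta4 fell, the mu class gene Gstm1 rose, and the pi class gene Gstp1 did not pass the test. Among the other targets Hmox1 and Txnrd1 fell, and neither gene of glutathione synthesis was called. In all, 1 member rose and 4 fell of 10, with or without the filter, where limma called 46.1% of 10037 genes in this comparison (21.2% higher and 24.9% lower; 45.8% of probe sets). The members' share is close to that background. The arrays of both groups did not overlap for 8 members, which for all genes was so in 73.0%. Their median change was -0.27, beside -0.04 over all genes tested. Changes are differences of log2(signal + 16), a scale that understates the change of dim genes, and a gene was called at an adjusted p under 0.05. With each array divided by its median signal, 8 members were called, 1 higher and 7 lower (Gstp1, Gclc and Nqo1 as well). That scaling called 9273 of 18625 probe sets (3083 higher and 6190 lower), in place of 8522. Over all probe sets the median was then -0.25, in place of 0.07. The share of calls over all probe sets that were higher moved with it from 54.7% to 33.2%.

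**Figure D1:**
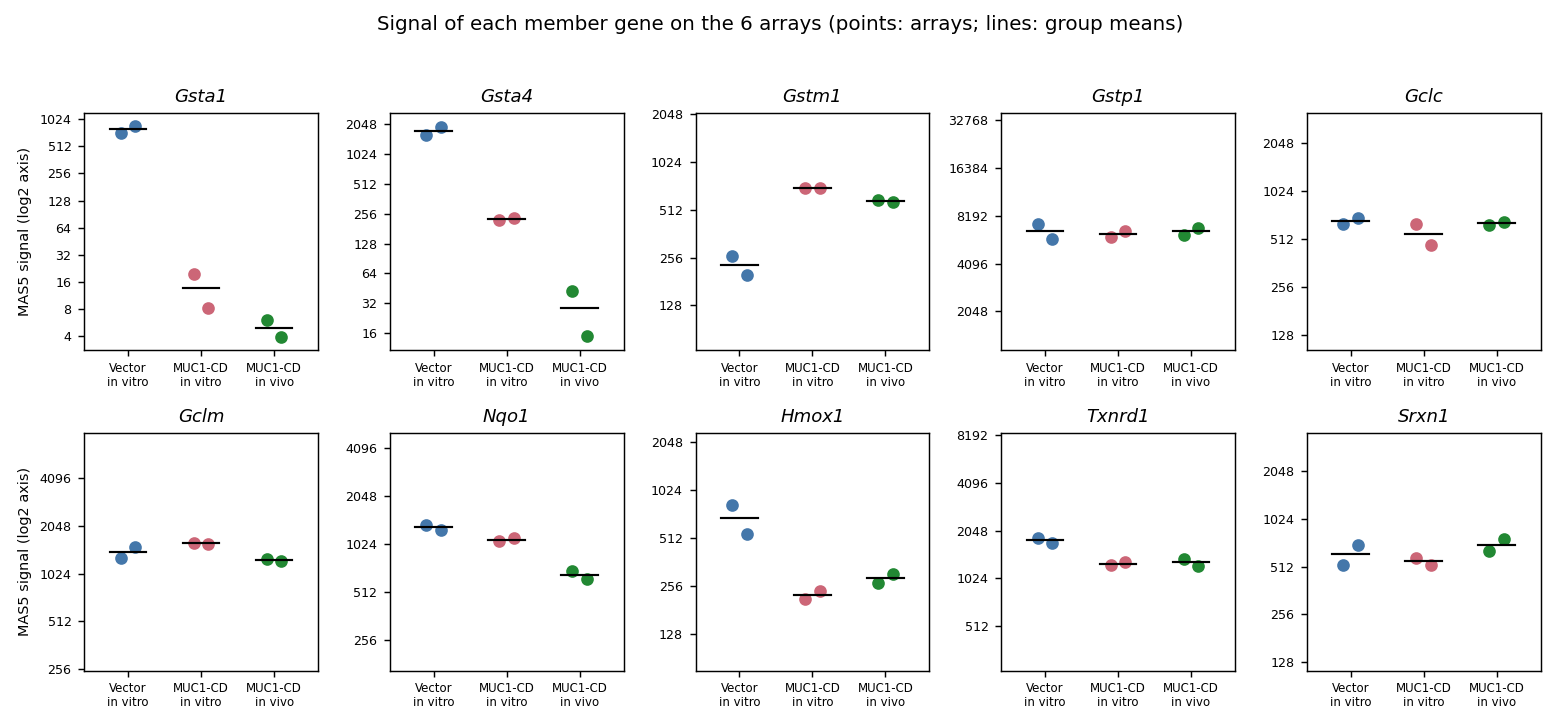
MAS5 signal (vertical log2 axes, with a range of their own in each panel) of the 10 member genes on the 6 arrays, by group; points are arrays and horizontal lines are means of 2. Gsta1 and Gsta4 lie far lower in both MUC1-CD groups than in Vector cells, Gstm1 lies higher, and Gstp1 overlaps across the 3 groups.

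Gsta1 encodes an alpha class transferase known as a major form of rat liver. Its signal was 722 and 862 in Vector cells, 19.5 and 8.20 in MUC1-CD culture, and 6.00 and 3.90 in tumors. Both Vector arrays were far above the other 4, which all lay under the filter level of 61.6. The change between cultures was -4.78 ± 0.30 (SE; adjusted p = 8.34e-05), or -5.85 with a pseudocount of 1 and -3.46 with 64, so its size is uncertain. Because a gene that is above the filter through 1 group alone had to differ, the fit with no filter is the one to read, and there the adjusted p was 0.000197. From culture to tumors the change was -0.49 ± 0.30 (adjusted p = 0.312), between signals that were all under the filter level.

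Gsta4, the alpha class form known for its high activity toward hydroxynonenal, an aldehyde from lipid peroxidation, was the only member called lower in both steps. Its signal was 1599 and 1906 on the Vector arrays, 221 and 230 (229.7) in MUC1-CD culture, and 42.6 and 15 in tumors. The 3 groups did not overlap. It fell by 2.87 (SE 0.30) between the cultures, a ratio of mean signals of 7.77 (adjusted p = 0.000563), and fell by 2.50 (SE 0.30) from culture to tumors (adjusted p = 0.00329). Both tumor signals were under the filter level and far from each other, so the size of the second fall is uncertain: it was -1.66 with a pseudocount of 64 and -3.10 with a pseudocount of 1.

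Gstm1, of the mu class, went the other way. Its signal was 261 (260.8) and 199 on the Vector arrays, 699.9 and 701 in MUC1-CD culture, and 589.8 and 577 in tumors. Both MUC1-CD groups lay above both Vector arrays, and the tumor arrays below the culture arrays. The rise between the cultures was 1.55 ± 0.17 (adjusted p = 0.000642), a ratio of mean signals of 3.05. The later difference was -0.26 ± 0.17 (adjusted p = 0.353). The genes of this class are close copies of each other, so signal shared between the probe sets of mu class genes is uncertain.

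Gstp1, the pi class form known in rats as a marker of early liver lesions, had signals of 7221 and 5868 in Vector cells, 6028 and 6520 (6520.0) in MUC1-CD culture, and 6214 and 6859 in tumors. The arrays of the 3 groups overlapped, and the differences were -0.05 ± 0.12 between the cultures and 0.06 ± 0.12 from culture to tumors (adjusted p = 0.746 and 0.793). With each array divided by its median, the difference between the cultures was -0.38 and passed the test (adjusted p = 0.0475).

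**Figure D2:**
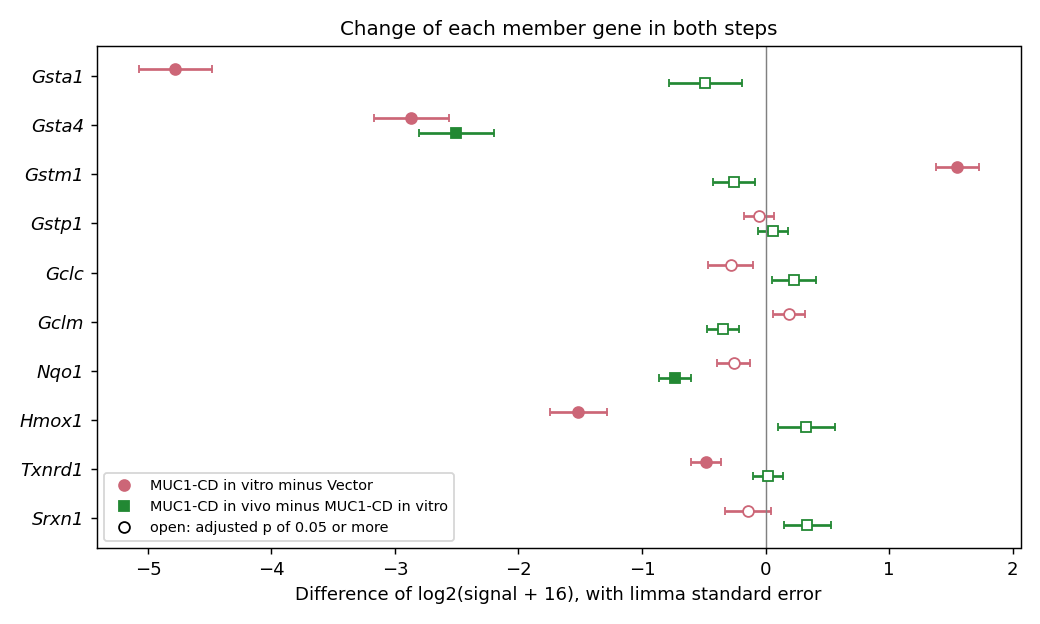
Difference of log2(signal + 16) with its limma standard error (horizontal axis) for each member gene, in MUC1-CD in vitro minus Vector (circles) and in MUC1-CD in vivo minus MUC1-CD in vitro (squares); filled symbols have an adjusted p under 0.05. Gsta1 (-4.78), Gsta4 (-2.87), Hmox1 (-1.51) and Txnrd1 (-0.48) are filled on the left for the first step and Gstm1 (1.55) on the right, and Gsta4 (-2.50) and Nqo1 (-0.73) are filled for the second. Gsta1 was above the filter through the Vector arrays alone, so in this filtered fit it had to differ in the first step.

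Gclc and Gclm encode the catalytic and the modifier subunit of glutamate-cysteine ligase, which sets the rate of glutathione synthesis. Gclm had signals of 1279.9 and 1505 in Vector cells, 1593 and 1582 in MUC1-CD culture, and 1257 and 1237 in tumors. It was thus highest in MUC1-CD culture and lowest in tumors without overlap, over a narrow range. Its difference was 0.19 ± 0.13 between the cultures (adjusted p = 0.262) and -0.34 ± 0.13 from culture to tumors (adjusted p = 0.120). Gclc, by its brighter probe set, had signals of 637 and 695 in Vector cells, 635 and 466 in MUC1-CD culture, and 631 and 655 in tumors. The low array in MUC1-CD culture was replicate 2, and neither difference passed the test (-0.28 ± 0.18, adjusted p = 0.242, and 0.23 ± 0.18, adjusted p = 0.427). The dimmer Gclc probe set gave 0.60 ± 0.43 between the cultures (adjusted p = 0.289), of opposite sign.

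Hmox1, heme oxygenase 1, which breaks down heme, had signals of 832 and 541 (540.5) in Vector cells, 212 and 237 in MUC1-CD culture, and 269 and 304 in tumors. Vector cells lay above both other groups, and tumors slightly above MUC1-CD culture. It fell by 1.51 (SE 0.23) between the cultures, a ratio of mean signals of 3.05 (adjusted p = 0.00231), and differed by 0.33 ± 0.23 from culture to tumors (adjusted p = 0.376). Nqo1, the quinone reductase often used as a readout of NRF2 activity, stepped down instead: 1358 and 1263 in Vector cells, 1068 and 1116 in MUC1-CD culture, and 689 and 616 in tumors. The first of these steps was -0.26 ± 0.13 (adjusted p = 0.151), and in the second it fell by 0.73 (SE 0.13; adjusted p = 0.0135). Without any 1 of the 4 MUC1-CD arrays the second change was -0.81 to -0.65 and no longer passed, with adjusted p = 0.0944 to 0.142.

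Txnrd1, the cytosolic reductase of thioredoxin, had signals of 1851 and 1712 in Vector cells, 1247 and 1297 (1296.5) in MUC1-CD culture, and 1359.8 and 1228 in tumors. It fell by 0.48 (SE 0.12) between the cultures (adjusted p = 0.0177) and differed by 0.02 ± 0.12 from culture to tumors (adjusted p = 0.924). Without MUC1-CD culture replicate 1 or 2 the adjusted p was 0.126 or 0.101. A second, dimmer Txnrd1 probe set differed by 0.63 ± 0.57 the other way (adjusted p = 0.404), and the mean of both probe sets had a change of 0.08. Srxn1, sulfiredoxin, which restores overoxidised peroxiredoxins, had signals of 528 and 702 in Vector cells, 579 and 524 in MUC1-CD culture, and 639.8 and 768 in tumors. Its groups overlapped between the cultures, at -0.14 ± 0.19 (adjusted p = 0.574), while tumors lay above MUC1-CD culture by 0.34 ± 0.19 (adjusted p = 0.270). Its other 2 probe sets were below the filter on average and were not tested. In one the signals were 5.50 and 4.30 in Vector cells, 27.0 and 15.7 in MUC1-CD culture, and 4 and 5.40 in tumors; in the other all 6 lay between 34.3 and 61.9.

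**Figure D3:**
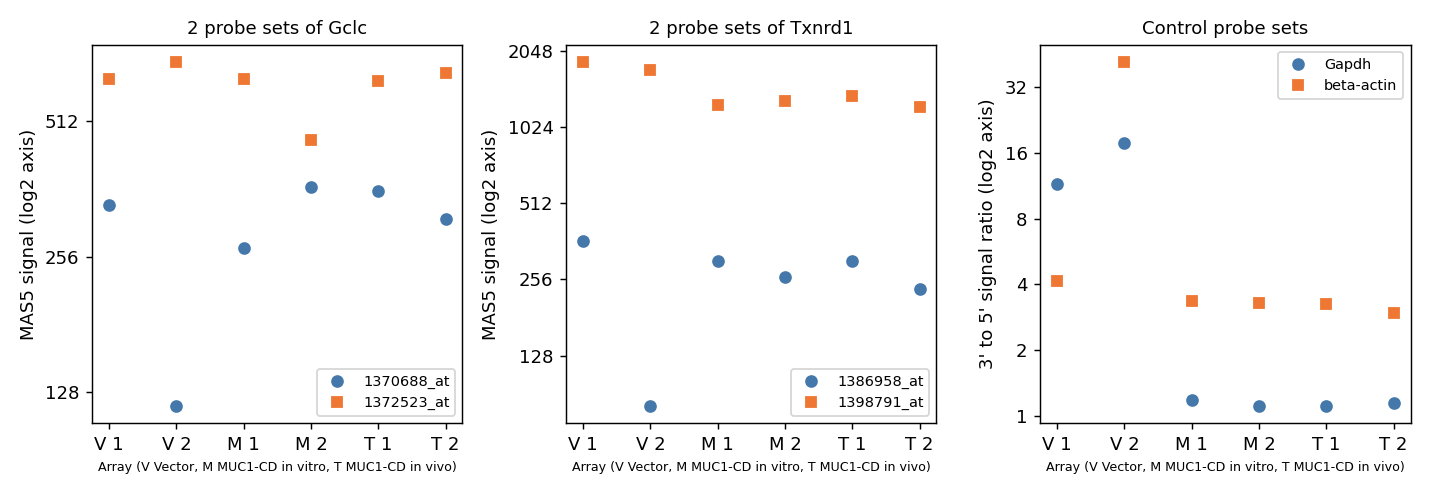
Left and middle, MAS5 signal (log2 axis) of both probe sets of Gclc and of Txnrd1 on each array; right, the 3' to 5' signal ratio (log2 axis) of the Gapdh and beta-actin controls. Vector replicate 2 (V 2) is the lowest array of the dimmer probe set of both genes, at 119 and 80.8, and has the highest ratios, 17.8 and 41.7.

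The probe sets of Gclc and Txnrd1 disagreed on some arrays. In the dimmer Gclc probe set the Vector arrays gave 334 and 119, against 268 to 366 on the other 4 arrays. In the dimmer Txnrd1 probe set they gave 364 and 80.8, against 236 to 303 (302.5). For Gclc, MUC1-CD culture replicate 2 disagreed as well, lowest in the brighter probe set (466) and highest in the dimmer one (366). The low Vector value was replicate 2 in both genes, the array whose beta-actin ratio was 41.7 beside 2.97 to 4.15 on the other 5. The part of RNA state in these values was not tested.

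The second comparison, of tumors with the same line in culture, asks which of these genes differ with growth in the animal. Gsta4 and Nqo1 fell and no member rose, 2 of 10 members where limma called 18.8% of genes (9.82% higher and 8.97% lower) and 15.8% of probe sets. The arrays of both groups did not overlap for 7 members, beside 75.0% of all genes. The members' median change was -0.12, beside 0.03 over all genes tested. A fit of only the 4 arrays of these groups called 8049 of 18625 probe sets, in place of 2952. In that fit 4 members were called: Gclm fell by 0.34 (adjusted p = 0.00483) and Srxn1 rose by 0.34 (adjusted p = 0.0400) as well. Leaving out 1 array moved the counts of called members and of called probe sets together, up without a Vector array and down without a MUC1-CD array.

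Markers of host cells moved in the same comparison. They are counted here over all markers on the array, since many passed the filter through the tumors alone. Both tumor arrays were above both arrays of MUC1-CD culture for 14 of 17 macrophage markers and below them for 1. The same was so for all 11 skeletal muscle markers, and for 6 of 10 endothelial markers, with 2 lower. Of 4 erythroid markers 2 were higher in this way, 0 were lower and 2 overlapped. The same counts held for 4 hepatocyte markers, a cell type not of the graft site that was listed as a negative check. Of 10 fibroblast markers 7 were higher, 1 was lower and 2 overlapped. Such a count alone therefore does not set host cells apart. Over all genes tested, 75.0% did not overlap, in either direction. The summed macrophage signal was 1263 to 1381 in Vector cells, 3490.3 to 3747 in MUC1-CD culture and 6914 to 7147 in tumors, of which Cd14 alone had a mean of 529 (528.7), 2939.6 and 3268. The summed muscle signal was 10168 to 10707 in Vector cells, 3069.9 to 3105 in culture and 12700.0 to 13428 in tumors, and Myh1 alone had a mean of 10038, 2716 and 4026. The endothelial sums were 535 to 614 (613.5), 562 to 571 and 1199 to 1402. Among the defining markers Pecam1 was at 17.8 and 27.5 in tumors, Adgre1 at 15.7 and 16 and Ptprc at 65.3 and 63.1, while Aif1 was at 639 and 604, Acta1 at 5855 (5854.5) and 4971, and Hbb at 3224 and 3309. The part of host RNA in the members' values was not tested. In bulk RNA, fewer cells of a type and less RNA per cell cannot be told apart, and the labels describe a preparation of tumor tissue that cultured cells do not need, so RNA preparation and growth setting cannot be told apart.

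Tumors against Vector cells use the same arrays again and are given only for the full span. Here 1 member rose and 5 fell, where limma called 51.4% of genes (24.8% higher and 26.6% lower) and 51.5% of probe sets, with a median of -0.31 over the members and -0.02 over all genes. Arrays did not overlap for 7 members, beside 75.6% of all genes. Gsta4 fell by 5.37 (SE 0.30; adjusted p = 4.56e-05) and Nqo1 fell by 0.99 (SE 0.13; adjusted p = 0.00109). Hmox1 fell by 1.18 (SE 0.23; adjusted p = 0.00530) and Txnrd1 fell by 0.46 (SE 0.12; adjusted p = 0.0192). Gsta1, counted among the 5, was above the filter through the Vector arrays alone, so it had to differ in the filtered fit. It is therefore given by its signals, 721.7 and 862.1 in Vector cells and 6 and 3.9 in tumors. The fit with no filter called it lower as well. The tumor signals of both alpha class genes were under the filter level, so the sizes of their falls are uncertain. Gstm1 was higher by 1.30 ± 0.17 (adjusted p = 0.00106). The Txnrd1 call was lost when only the 4 arrays compared were fitted (adjusted p = 0.0547).

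In order of level, Gsta1, Hmox1 and, by its brighter probe set, Txnrd1 were highest in Vector cells, with the 2 MUC1-CD groups not told apart by the test. The dimmer Txnrd1 probe set had its lowest mean in Vector cells (222, beside 282 in MUC1-CD culture and 269 in tumors), and its groups overlapped. Gsta4 ran from Vector cells down through MUC1-CD culture to tumors, each step called. For Nqo1 the order was the same, but Vector cells and MUC1-CD culture were not told apart. Gstm1 was lowest in Vector cells, and its MUC1-CD groups were not told apart. For Gstp1, Gclc, Gclm and Srxn1 no pair of groups differed at the threshold. Arrays divided by their median put tumors below Vector cells for Gstp1, Gclc and Gclm, by -0.59, -0.63 and -0.74 (adjusted p = 0.00665, 0.0252 and 0.00298).

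Over the whole family of glutathione transferases, 22 of 26 listed genes had a single-gene probe set and 17 were tested. Between the cultures 4 of the 17 rose and 8 fell, with a median of -0.55, where 21.2% of all genes were called higher and 24.9% lower. Genes that are above the filter through 1 group alone, such as Gsta1, are among the 17, so the count is a description. Outside the members the smallest p values belonged to Gstk1, Mgst3 and Mgst1. Gstk1, the mitochondrial and peroxisomal kappa form, had signals of 487 and 849 in Vector cells, 2.00 and 10.2 in MUC1-CD culture, and 53.4 and 43.1 in tumors. Like Gsta1 it was above the filter through the Vector arrays alone, so its signals are given as a description, without a fold or test. Of the microsomal transferases, which belong to a separate protein family, Mgst3 rose by 2.49 ± 0.26 and Mgst1 fell by 1.42 (SE 0.16), with adjusted p = 0.000495 and 0.000640.

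**Figure D4:**
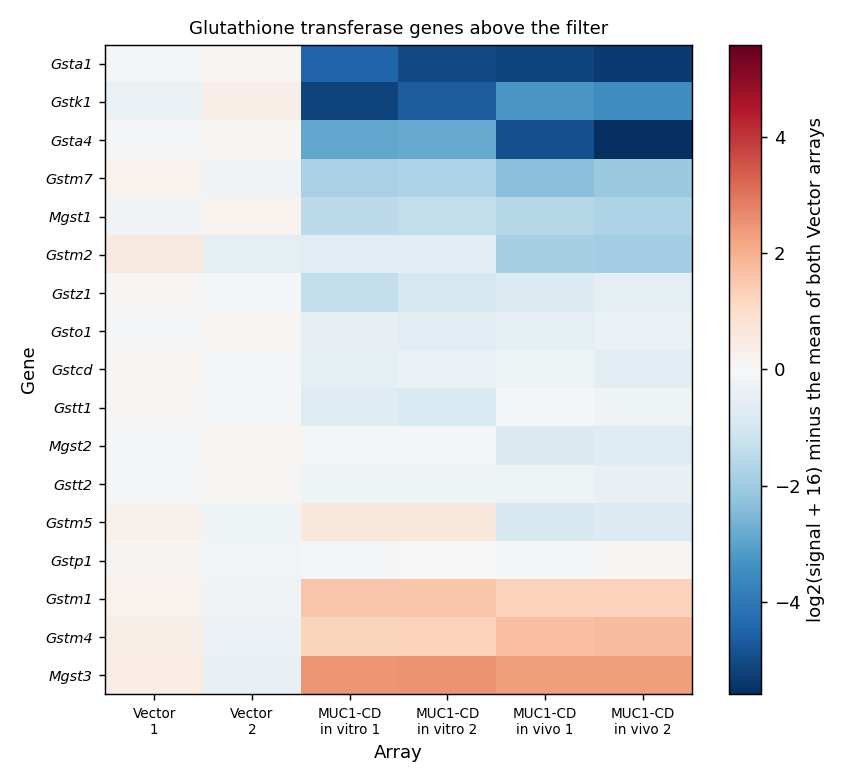
Difference of log2(signal + 16) from the mean of both Vector arrays (colour scale, blue lower, red higher) for the 17 tested glutathione transferase genes (rows) on the 6 arrays (columns). Gsta1, Gstk1 and Gsta4 are dark blue in MUC1-CD arrays, Gstm1, Gstm4 and Mgst3 are red, and Gstm5 turns from light red in culture to blue in tumors.

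The mu class genes near Gstm1 on chromosome 2 were singled out after their values were seen, because Gstm2, Gstm4, Gstm5 and Gstm7 are among its 10 nearest tested genes in GRCr8. Between the cultures Gstm4 rose by 1.25 and Gstm5 by 0.65, Gstm7 fell by 1.77 and Gstm2 differed by -0.63 without a call (adjusted p = 0.00544, 0.0149, 0.00143 and 0.136). Neighbouring copies of this cluster thus moved in both directions. From culture to tumors Gstm5 fell by 1.49 (SE 0.16; adjusted p = 0.00181), from 5976 and 5979 to 2026 and 2221, and Gstm2 by 1.27 (adjusted p = 0.0356). Over all 17 transferases 1 rose and 4 fell in that step, where 18.8% of all genes were called (9.82% higher and 8.97% lower). The gene that rose was Gstk1, whose signals in MUC1-CD culture and in tumors were all under the filter level. Those that fell were Gsta4, Gstm5, Gstm2 and Mgst2, the last by 0.67 (SE 0.09; adjusted p = 0.00504).

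The nearest tested genes of the alpha class members were looked at too. Gsta4 and Gclc are near each other on chromosome 8, and of the 10 tested genes nearest to Gsta4, Gclc among them, 2 were called lower and 3 higher between the cultures, with a median of -0.25. Around Gsta1 on chromosome 9, 2 of 10 were called lower and 6 higher, with a median of 0.68. Over all genes 46.1% were called. In tumors, against MUC1-CD culture, 1 of the 10 genes near Gsta4 was called lower and 1 higher, with a median of 0.23, and of those near Gsta1 4 were called lower and 0 higher, with a median of -0.45, where 18.8% of all genes were called.

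The levels of the pathway's regulators are given next, with NRF2 itself first. Nfe2l2, which encodes NRF2, had signals of 4799.8 and 5271 in Vector cells, 5332 and 5316 in MUC1-CD culture, and 5968 (5967.5) and 6239.9 in tumors. Its difference was 0.08 between the cultures and 0.20 from culture to tumors (adjusted p = 0.496 and 0.194), and over the full span from Vector cells to tumors it rose by 0.28 (adjusted p = 0.0392). Keap1 differed by -0.17 and 0.02 (adjusted p = 0.509 and 0.969). The Bach1 probe set was below the filter, at 2.10 to 11.6 on the 6 arrays. Of 10 regulators tested, 2 rose and 2 fell between the cultures, near the 46.1% called over all genes: the kinase gene Gsk3b rose by 1.98 ± 0.22 and Cul3 by 0.73 ± 0.10, while the small MAF gene Mafk fell by 1.24 (SE 0.29; adjusted p = 0.0129) and Nfe2l1, which encodes the related factor NRF1, fell by 0.68. In tumors against MUC1-CD culture 1 rose and 0 fell, where 18.8% of all genes were called. The gene that rose was Maff, another small MAF gene, by 0.98 ± 0.20 (adjusted p = 0.0199). In tumors against Vector cells 4 rose and 0 fell (Nfe2l2, Maff, Cul3 and Gsk3b), where 51.4% of all genes were called. The level of a transcript says nothing about NRF2 protein, which is set mainly by its breakdown.

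In the list of glutathione and NADPH supply, 7 of 15 tested genes rose and 4 fell between the cultures, with a median of 0.47, beside 46.1% of all genes called. In tumors 2 rose and 3 fell against MUC1-CD culture, with a median of -0.25, beside 18.8%. Cth, cystathionine gamma-lyase, which makes cysteine for glutathione, had signals of 603 and 465 in Vector cells, 2546 and 2625 in MUC1-CD culture, and 173 and 265 in tumors. The culture arrays of MUC1-CD cells were thus far above both other groups, with changes of 2.25 ± 0.23 and then -3.50 ± 0.23 (adjusted p = 0.000447 and 0.000306). Slc3a2, the heavy chain of the cystine importer, fell by 1.04 (SE 0.15) between the cultures and Chac1, which degrades glutathione, also fell by 1.04 (SE 0.15). From culture to tumors Slc3a2 rose by 0.80 ± 0.15 (adjusted p = 0.0147). In tumors Idh1, a source of cytosolic NADPH, fell by 1.16 (SE 0.13) and Ggt5, of the gamma-glutamyl transferase family, rose by 2.82 ± 0.18 from 87.9 ± 10.9 to 716 ± 68.7 (SD, n = 2). The importer's light chain Slc7a11, a known NRF2 target that was looked at after the values were seen, differed by -0.17 and -0.41 without a call in either step, and fell by 0.57 from Vector cells to tumors (adjusted p = 0.0255).

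**Figure D5:**
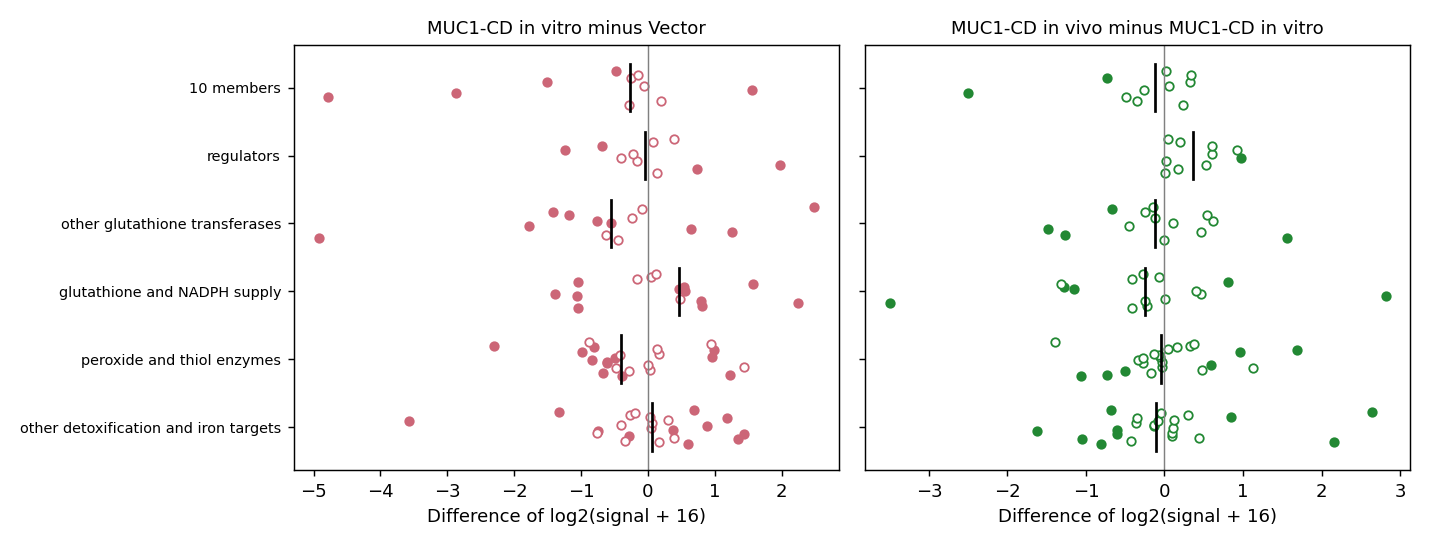
Differences of log2(signal + 16) (horizontal axes) for the tested genes of the members and 5 related lists, MUC1-CD in vitro minus Vector on the left and MUC1-CD in vivo minus MUC1-CD in vitro on the right; points are genes, filled where the adjusted p is under 0.05, and black bars are medians. On the left the medians run from -0.55 (other glutathione transferases) to 0.47 (glutathione and NADPH supply), and each list has filled points on both sides of 0.

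Among enzymes that handle peroxides and thiols, 3 of 22 tested rose and 9 fell between the cultures, with a median of -0.40, a share near the 46.1% of all genes called. Txnip, an inhibitor of thioredoxin, fell by 2.30 (SE 0.21) from 4989.95 ± 1628 to 974 ± 43.1 (SD, n = 2; adjusted p = 0.000343), Sod2, the mitochondrial superoxide dismutase, fell by 0.99 (SE 0.12), and the peroxiredoxin gene Prdx5 rose by 0.96 ± 0.10. From culture to tumors 3 rose and 3 fell, where 18.8% of all genes were called. Sod3, the extracellular dismutase, rose by 1.69 ± 0.15 (adjusted p = 0.000915) and Sod2 rose by 0.96 ± 0.12 (adjusted p = 0.00405). Cat, catalase, fell by 1.07 (SE 0.12; adjusted p = 0.00264). Sod2 was thus at 1336 and 1383 in Vector cells, at 643 and 709.6 in MUC1-CD culture, and at 1333 on both tumor arrays.

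In the list of other detoxification and iron genes, 7 of 22 tested rose and 4 fell between the cultures, with a median of 0.06, again near the 46.1% of all genes called. Ephx1, microsomal epoxide hydrolase and a classic NRF2 target, had signals of 2394 and 1842 in Vector cells, 163 and 161 (160.5) in MUC1-CD culture, and 143 and 162 in tumors. Both Vector arrays lay far above the other 4, and the change was -3.58 ± 0.18 (adjusted p = 4.44e-05). Akr1b8, an aldo-keto reductase, and the efflux pump gene Abcc4 rose instead, by 1.43 ± 0.10 and 1.35 ± 0.13 (adjusted p = 0.000121 and 0.000391). From culture to tumors 3 rose and 6 fell, with a median of -0.10, where 18.8% of all genes were called. Of those that rose, Abcc2 and Slc40a1 had a mean signal above the filter only with the tumor arrays, so the count is a description. Slc40a1 was at 90.8 and 61.7 in Vector cells, 30.9 and 12 in MUC1-CD culture, and 251.2 and 176 in tumors. The aldehyde dehydrogenase gene Aldh3a1 fell by 1.62 (SE 0.18) and Abcc4 fell by 1.06 (SE 0.13). The efflux pump gene Abcc2, above the filter through the tumors alone, went from 36.9 ± 12.7 to 218 ± 1.56 (SD, n = 2).

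Likeness of pattern was measured as Pearson's r of log2(signal + 16) over the 6 arrays, which share their groups, so that many genes reach a high r. The gene most like Gsta1 was Helb (r = 0.9996, with 851 genes above 0.95). This r compares the shape of a pattern and not its size: Helb changed by -1.24 between the cultures, and Gsta1 by -4.78. The gene most like Gsta4 was Ube4a (0.998, with 448), and the gene most like Gstm1 was Cldnd1 (0.999, with 523). For Nqo1 it was Cat, named above (0.998, with 219), for Hmox1 Nifk (0.995, with 335), for Txnrd1 Bmp4 (0.998, with 435) and for Gclm Psmd14 (0.996, with 86). The members that varied little had few like genes: Rdh11 for Gstp1 (0.970, with 5), Zzef1 for Gclc (0.981, with 2) and Sft2d3 for Srxn1 (0.988, with 9).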

How the data were processed

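The deposited values are MAS5 signals, a microarray intensity on a linear scale with 1 value per probe set and array, per the submitters' processing notes. No source used here gives the MAS5 version or detection calls. The authors' scaling, which gave each array the same 2% trimmed mean of 500.2, was kept. Of 31099 probe sets, 57 were controls. The annotation gave 1 gene for 20826, several for 436 and none for 9780. Symbols were updated through Entrez identifiers to GRCr8 (20758 matched). The symbol Gsta3 is an older alias of members, but its probe set belongs by identifier to another gene and was not counted as a member.

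Signals were analysed as log2(signal + 16) after the filter at the 40th percentile (18625 probe sets kept). All 6 arrays entered 1 limma fit (limma 3.58.1, R 4.3.3) with group as the only term, lmFit and eBayes with a trend, with 3 residual degrees of freedom. P values are 2-sided, with Benjamini-Hochberg adjustment across all 18625, and called under 0.05. They measure the spread between the arrays of a group, 1 estimate shared by the 3 groups, and the labels do not say that these came from separate cultures or animals. Vector replicates differed more (SD of the difference 0.616 log2) than those of MUC1-CD culture (0.257) and tumors (0.284), which the shared estimate averages over. The small number of arrays limits precision. Each gene stands as its brightest probe set above the filter, and counts of genes follow it. Named genes are the members, the regulators explained in the text, and up to 3 called genes of each list with the smallest p in each of the first 2 comparisons. The members and lists were chosen with earlier results of these data known. The code was tested on simulated data. Alternatives covered the pseudocount, the filter, the scaling, the trend, the arrays in the fit, the replicate number, each array left out and the mean over a gene's probe sets.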

Additional observations from a re-analysis of the deposited data

How the results depend on the processing

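Gsta1 was above the filter through the Vector arrays alone, so between the cultures it had to differ in every fit that kept a filter. The fit with no filter called it lower as well. The calls of Gsta4, Gstm1 and Hmox1 between the cultures, and of Gsta4 from culture to tumors, kept direction and side of the threshold in all 16 alternatives. Over the members' changes, 431 alternative values kept both, 16 newly passed the threshold, 11 no longer passed and 22 changed sign, all of the latter from main values that were not called except Txnrd1. With arrays divided by their median, which shifts all changes down (median of all probe sets -0.25, -0.21 and -0.46, where it was 0.07, 0.05 and 0.12), 8 members were called between the cultures, Gclm turned to -0.13 there, Gstp1, Gclc and Txnrd1 to -0.21, -0.032 and -0.24 from culture to tumors, and Gstp1 and Srxn1 to -0.59 and -0.38 in tumors against Vector. The share of higher calls over all probe sets moved to 33.2%, 22.3% and 25.1% from 54.7%, 53.9% and 56.5%. Between the cultures this scaling called 9273 of 18625 probe sets, in place of 8522. Quantile normalization turned Gstp1 to 0.047 between the cultures. The mean of a gene's probe sets turned Gclc and Txnrd1 to 0.16 and 0.076 between the cultures, Txnrd1 to -0.024 from culture to tumors, and both to 0.32 and 0.052 in tumors against Vector. Fitted on their own 4 arrays, tumors against MUC1-CD culture gave 8049 probe sets in place of 2952, and 4 members in place of 2. This fit leaves out the Vector arrays, which differ most.

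With 1 array left out, taking the single array left in a group to have the spread of the others, the probe sets called were 4391 to 11503 between the cultures (8522 with all), 572 to 8097 from culture to tumors and 5884 to 12434 in tumors against Vector (9589 with all); the members called were 4 to 7, 1 to 4 and 5 to 7. The counts between the cultures were lowest without MUC1-CD culture replicate 1 (4760) or 2 (4391). From culture to tumors they were 8097 and 8059 without Vector replicate 1 or 2, 679 and 683 without MUC1-CD culture replicate 1 or 2, and 572 and 646 without tumor replicate 1 or 2. In tumors against Vector they were 5884 and 6031 without tumor replicate 1 or 2. Changes whose sign turned ranged from -0.20 to 0.10 (Gstp1) and -0.34 to 0.061 (Srxn1) between the cultures, from -0.013 to 0.13 (Gstp1) and -0.049 to 0.10 (Txnrd1) from culture to tumors, and from -0.15 to 0.15 (Gstp1), -0.11 to 0.012 (Gclc) and -0.0020 to 0.40 (Srxn1) in tumors against Vector. The cause of these shifts was not tested.

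The labels give no pairing of samples by replicate number. Deviations of same-numbered arrays from their group means correlated at -0.02, -0.03 and -0.04 across probe sets. With 2 arrays a group, this cannot tell whether same-numbered arrays shared a culture or a run. With the replicate number as a block, 8130, 2390 and 9208 probe sets and 5, 2 and 6 members were called.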
